A study of Mus musculus with 8 samples.

Results

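The genes described here are 9 targets of stress hormones and metals that are commonly read in skin RNA: Fkbp5, Tsc22d3, Sgk1, Zbtb16, Pdk4, Angptl4, Cdkn1a and the metallothioneins Mt1 and Mt2. They were chosen by name, with earlier results of these data known, out of 18901 genes listed for each library. All 9 passed the filter on low counts. Each library is the cheek skin of 1 mouse. The knockout group is 4 TBX20fl/fl;K14-Cre mice, in which Cre driven by the keratin 14 promoter removes exons 2 to 3 of Tbx20 in keratinocytes, and the control group is 4 TBX20fl/fl mice, which carry the floxed alleles without Cre. All 8 were female, were 7 weeks old and received 10 µg of BNP, a natriuretic peptide that evokes scratching, into the left cheek. The tissue was taken 5 h after a recording of 30 min, and the vehicle-injected cheek was not analysed here, so the values compare genotypes after BNP and do not give a response to BNP. The piece was cut from the whole cheek, so the deleted cells are only part of it. In bulk tissue, fewer cells of a type and less RNA per cell cannot be told apart.

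Glucocorticoids enter cells and bind the glucocorticoid receptor, a transcription factor that is held in the cytoplasm by chaperones and moves to the nucleus with its ligand. There it raises a set of genes that includes brakes on its own activity (Fkbp5), anti-inflammatory factors (Tsc22d3), kinases (Sgk1) and switches of fuel use in fasting (Pdk4, Angptl4). Metallothioneins are small cysteine-rich proteins that bind zinc and copper. Their genes are raised by metals through the zinc sensor MTF1, and also by glucocorticoids, oxidative stress and inflammatory cytokines.

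The sequences below are the windows from 250 bases before to 50 bases after an annotated transcript start of the metallothionein genes, shown because Mt1 and Mt2 are neighbours and were the members that separated the genotypes. Mt2 lies on mouse chromosome 8 (GRCm38, chr8:94172618-94173567) and Mt1 follows it on the same strand (chr8:94178883-94180327), with 5315 bases between them. The Mt1 window belongs to a transcript that starts inside these gene bounds, downstream of the first base given. Capitals mark matches to the core of the metal response element to which MTF1 binds, spelled TGCGCNC or TGCACNC and searched on both strands, so that a match on the other strand reads as its reverse complement. The windows are from RefSeq on GRCm38.p6, plus strand, 5′ to 3′.
Mt2, chr8:94172368-94172667: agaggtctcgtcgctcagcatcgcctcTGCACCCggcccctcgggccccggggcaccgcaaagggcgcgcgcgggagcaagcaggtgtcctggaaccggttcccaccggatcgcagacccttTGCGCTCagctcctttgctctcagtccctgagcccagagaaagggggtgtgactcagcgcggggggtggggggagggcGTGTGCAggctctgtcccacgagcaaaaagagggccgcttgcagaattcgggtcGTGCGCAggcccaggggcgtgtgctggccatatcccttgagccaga
Mt1, chr8:94178839-94179138: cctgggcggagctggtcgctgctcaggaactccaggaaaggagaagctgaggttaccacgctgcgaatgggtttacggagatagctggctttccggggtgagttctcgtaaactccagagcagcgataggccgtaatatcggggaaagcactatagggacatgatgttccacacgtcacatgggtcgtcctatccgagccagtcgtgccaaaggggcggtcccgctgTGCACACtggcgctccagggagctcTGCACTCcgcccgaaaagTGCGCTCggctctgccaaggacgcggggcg

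The Mt2 window held 4 of these cores and the Mt1 window held 3. Among the other members, an Sgk1 window (chr10:21994416-21994715) held 1, which reads GAGCGCA. At least 1 such core occurred in 25.7% of all 32851 RefSeq windows of this length, so its presence alone is common. The full palindrome of the glucocorticoid response element, AGAACA and TGTTCT with any 3 bases between them, occurred in 3 of the 32851 windows (0.00913%). Among the members 1 of 15 windows held it, that of an Sgk1 transcript (chr10:21993640-21993939), where it reads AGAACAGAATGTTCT. No window was listed for Zbtb16 or Angptl4. These matches describe letters in a window and are not measured sites.

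Facts on the libraries come first, because they touch several members. Total counts were 16056282 to 19880654 per mouse. Control mouse 2 stood apart, with a median Spearman correlation to the other libraries of 0.919 against 0.974 to 0.99 for the rest, and its deviations from the mean of all mice fell with transcript length (Spearman correlation over genes -0.782). That correlation was -0.353 in control mouse 3 and 0.261 to 0.623 in the other mice. Tbx20 had 0 to 2 counts in knockout and 0 to 3 in control libraries, too few to check the genotype. Keratinocyte markers summed to 6178 to 8193 CPM (counts scaled to library size) and skeletal muscle markers to 15136 to 28236 CPM, so the pieces held muscle beside skin. Hair follicle markers summed to 3659 CPM in knockout mouse 2 and to 34.4 to 521 CPM in the others. Of these 8 markers, 8 were higher in knockout, 6 of them at an unadjusted p under 0.05 (median log2 fold change 3.09), while the sums overlapped between groups (exact permutation p = 0.286).

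Mt1 and Mt2 were the members in which the genotypes were separate. FPKM values (fragments scaled to transcript length and to library size) of Mt1 were 350.3, 516, 371 and 475 in knockout mice 1 to 4 and 679.8, 1181, 761 and 654 in control mice 1 to 4. Every knockout value was below every control value, and control mouse 2 was far above the rest. Mean Mt1 FPKM was 428 ± 80.1 (SD, n = 4) in knockout and 819 ± 246 (SD, n = 4) in control mice. The exact permutation test, unpaired and two-sided, gave p = 0.0286, as low as 4 against 4 unpaired mice can reach.

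Mt2, which encodes the second ubiquitous metallothionein, had FPKM values of 351, 615, 368 and 539 in knockout mice 1 to 4 and 808, 1185, 782 and 779.8 in control mice 1 to 4. Again the groups did not overlap and control mouse 2 was highest. Mean Mt2 FPKM was 468 ± 129.5 (SD, n = 4) against 889 ± 198 (SD, n = 4) (exact permutation p = 0.0286). With no overlap, both genes were necessarily lower in the knockout mouse in 4 of 4 comparisons by number, which adds no support.

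**Figure D1:**
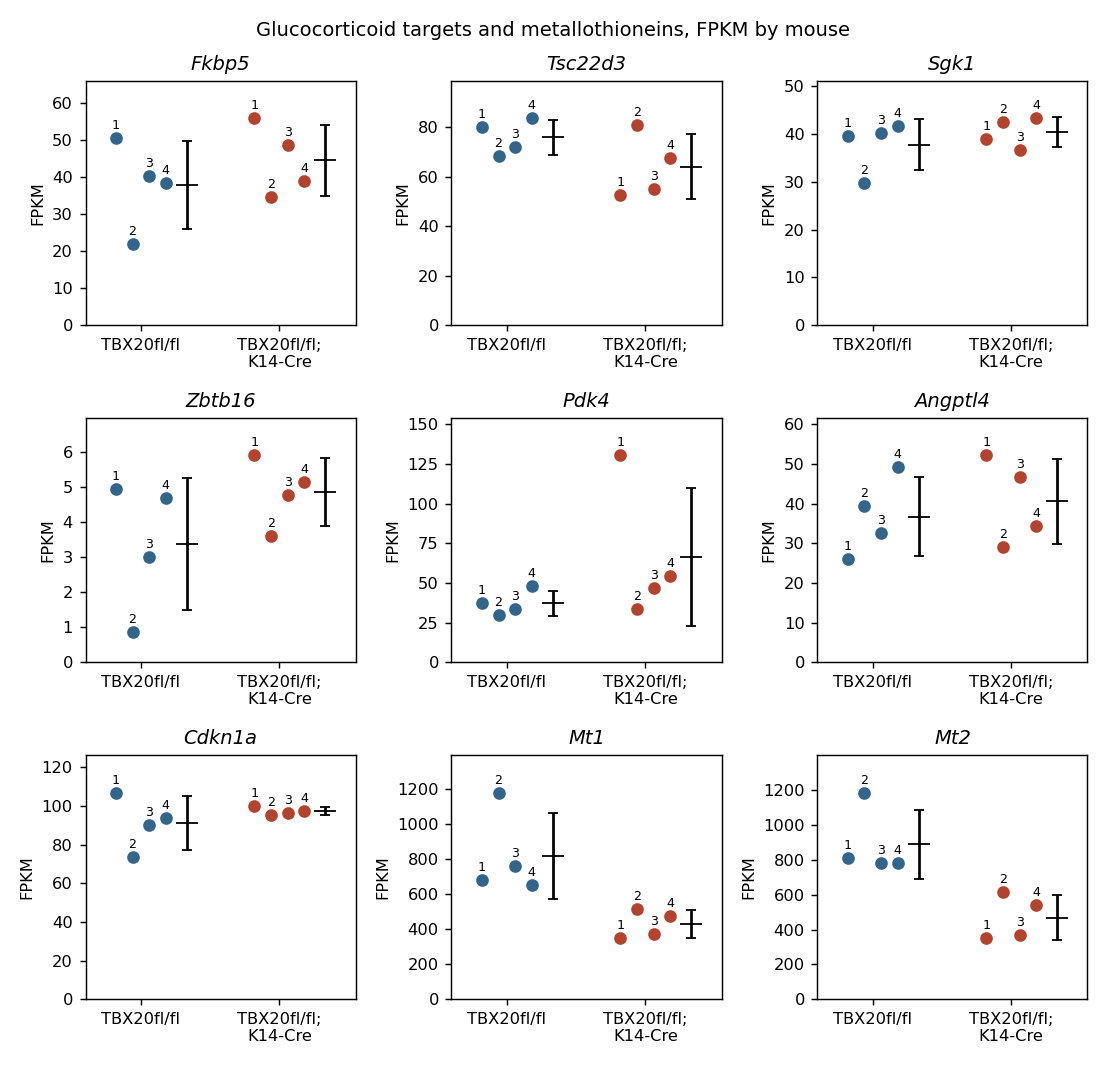
FPKM of each of the 9 genes by mouse (y axes, linear from 0), with control mice (TBX20fl/fl) at left in blue and knockout mice (TBX20fl/fl;K14-Cre) at right in red, numbered by replicate, and bars for the mean ± SD (n = 4). The knockout points of Mt1 and Mt2 lie below all control points, while the groups overlap in the other 7 genes, and knockout mouse 1 stands above all others in Pdk4 (130.4 FPKM).

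On the counts, in edgeR's quasi-likelihood test over 17124 genes, control libraries held 2.26-fold more Mt1 (log2 fold change, knockout minus control, -1.18, SE 0.318, unadjusted p = 0.0046, adjusted p = 0.498) and 2.22-fold more Mt2 (-1.15, SE 0.306, unadjusted p = 0.00422, adjusted p = 0.498). Neither passed the Benjamini-Hochberg adjustment over all genes, and across the alternative fits the adjusted p ranged from 0.0974 to 0.776 for Mt2 and from 0.0999 to 0.776 for Mt1. The lowest of these values came from DESeq2. In edgeR's fit 0% of all genes passed an adjusted p of 0.05, and 8.36% had an unadjusted p under 0.05, with 5.91% of all genes lower in knockout and 2.45% higher. The FPKM values of 1.92% of 15969 genes lay lower in all knockout than in all control mice, which is the background for the 2 metallothioneins that did so. Groups lay apart in the other direction in 5.45% of genes and in 0 of the 9 members, and in either direction in 7.37%.

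Transcript length and neutrophil markers are given here beside the metallothioneins. Their transcripts are short (494 bases for Mt1 and 507 for Mt2), and 1.21% and 1.34% of genes are shorter. With the trend of each library with transcript length removed, the log2 fold changes were -0.51 for Mt1 (edgeR unadjusted p = 0.00947, adjusted p = 0.534) and -0.54 for Mt2 (unadjusted p = 0.0214, adjusted p = 0.534). Without control mouse 2 they were -0.76 and -0.80, and with both changes -0.55 and -0.63, so the direction held in each of these fits while the size did not. Neutrophil markers summed to 82.1, 134, 111 and 192 CPM in knockout mice 1 to 4 and to 201, 619, 201 and 515 CPM in control mice 1 to 4 (exact permutation p = 0.0286). Of these 8 markers, 8 were lower in knockout, 6 of them at an unadjusted p under 0.05 (median log2 fold change -1.54), and none was at 0. Among control mice, mouse 2 was highest in these markers and in the sum of Mt1 and Mt2 (2366 FPKM). Control mouse 4, with 515 CPM, had a sum of 1434 FPKM, below mice 1 and 3 (1488 and 1543 FPKM). The part of transcript length or neutrophil content in the metallothionein values was not tested.

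The metallothioneins kept a nearly fixed proportion to each other in every mouse. The ratio of Mt2 to Mt1 FPKM was 1, 1.19, 0.994 and 1.13 in knockout mice 1 to 4 and 1.19, 1, 1.03 and 1.19 in control mice 1 to 4. Its mean was 1.08 ± 0.0987 (SD, n = 4) in knockout and 1.1 ± 0.102 (SD, n = 4) in control mice (exact permutation p = 0.6). Their sum was 896 ± 209.6 FPKM in knockout and 1708 ± 441 FPKM in control mice (SD, n = 4 each). Of 554 stretches of 50 bases in Mt2 transcripts, 254 (45.8%) also lie in Gm45774, an antisense gene annotated over Mt2. Counting by strand is not stated in the sources used here, so reads of Mt2 and Gm45774 may not be told apart, whereas Mt1 shared 0 of 1292 stretches with any other gene.

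**Figure D2:**
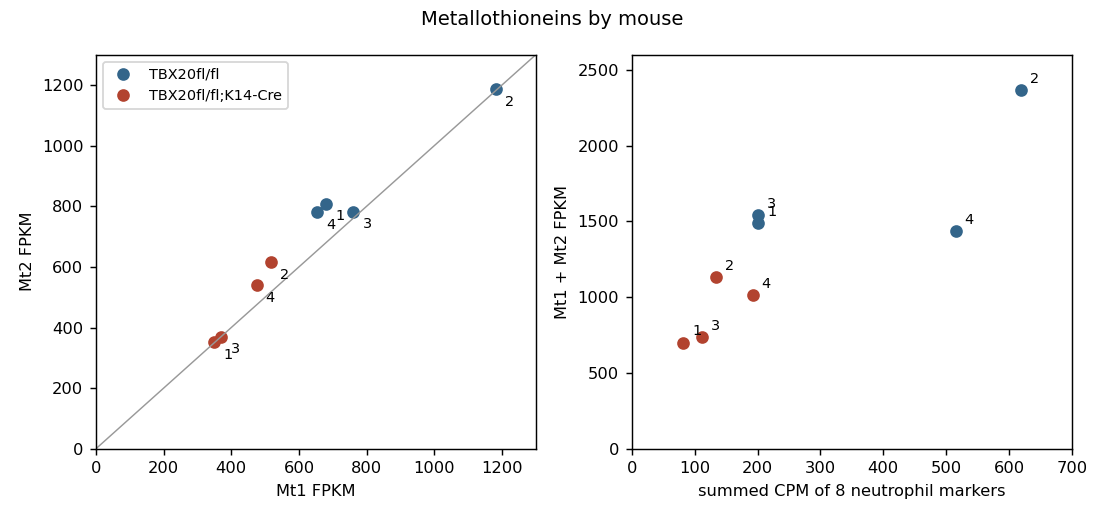
Left, Mt2 FPKM (y axis) against Mt1 FPKM (x axis) for each mouse, with a line of equality. Right, the sum of Mt1 and Mt2 FPKM (y axis) against the summed CPM of 8 neutrophil markers (x axis), with control mice in blue and knockout mice in red, numbered by replicate. The points at left follow the line (ratios 0.994 to 1.19), and at right control mouse 2 is highest on both axes (2366 FPKM and 619 CPM).

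The other metallothioneins and the rest of the zinc system gave a mixed picture. Mt3, a metallothionein best known from the brain, was low in skin and was 1.33 ± 0.142 FPKM in knockout (range 1.17 to 1.45) and 2.3 ± 0.422 FPKM in control mice (range 1.77 to 2.8) (SD, n = 4 each, exact permutation p = 0.0286). Its log2 fold change was -0.96 (SE 0.283, edgeR adjusted p = 0.498), and -0.40 with the length trend removed. Mt4, the form of stratified epithelia, ranged from 26.9 to 186 FPKM in knockout and from 24.6 to 108 in control mice, with its highest value in knockout mouse 2 and a log2 fold change of -0.064 (SE 0.682). Mtf1, the zinc sensor, was 3.12 ± 0.161 FPKM in knockout and 2.44 ± 0.871 in control mice (log2 fold change 0.24, SE 0.192, edgeR adjusted p = 0.533). With the length trend removed the sign turned for both, to 0.51 for Mt4 and -0.21 for Mtf1. Of 24 tested genes of zinc and metal handling, 1 was lower (Mt3) and 1 higher (Slc39a10, a zinc importer) at an unadjusted p under 0.05, which is 8.33% of the list against 8.36% of all genes. With the length trend removed 0 of 24 did so, and a block for the replicate number gave 1 lower and 0 higher. Slc39a10 was 65.6 FPKM in knockout mouse 2 and 14 to 19.7 in the other knockout mice. FPKM of the groups lay apart in 4 of the 24 genes, in either direction, against 7.37% of all genes.

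Tsc22d3, which encodes the leucine zipper protein GILZ and restrains inflammatory transcription factors, was the only other member with an unadjusted p under 0.05 in edgeR's test. Its FPKM values were 52.6, 81, 55.1 and 67.5 in knockout mice 1 to 4 and 80, 68.2, 72.1 and 83.6 in control mice 1 to 4. Knockout mice 1 and 3 lay below all others, but knockout mouse 2 was among the highest, so the groups overlapped. The means were 64.1 ± 13 and 76 ± 7.08 FPKM (SD, n = 4 each, exact permutation p = 0.171). On counts the log2 fold change was -0.40 (SE 0.169, edgeR unadjusted p = 0.042, adjusted p = 0.498). Leaving out knockout mouse 1, 3 or 4 or control mouse 1, 2 or 4 took its unadjusted p above 0.05, with log2 fold changes from -0.52 to -0.33 over all 8 omissions.

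Fkbp5 encodes a co-chaperone that holds the receptor in a state of low hormone affinity, and its transcript is a common readout of receptor activity. Its FPKM values were 56, 34.7, 48.7 and 39.1 in knockout mice 1 to 4 and 50.7, 21.9, 40.3 and 38.6 in control mice 1 to 4. The groups overlapped almost wholly, although each knockout mouse was above the control mouse of its number in FPKM (on TMM-scaled counts mouse 4 was not, with 139 against 142 CPM). Mean Fkbp5 was 44.6 ± 9.54 FPKM in knockout and 37.9 ± 11.9 FPKM in control mice (SD, n = 4 each, exact permutation p = 0.457). Its log2 fold change from counts was 0.11 (SE 0.214, edgeR adjusted p = 0.766), and -0.035 with the length trend removed (adjusted p = 0.937).

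Zbtb16, a BTB zinc finger transcription factor also called PLZF, was the lowest member. It had 5.89, 3.59, 4.75 and 5.14 FPKM in knockout mice 1 to 4 and 4.92, 0.86, 3 and 4.67 in control mice 1 to 4, with the lowest value in control mouse 2. Each knockout mouse was above the control mouse of its number. The log2 fold change was 0.44 (SE 0.378, edgeR adjusted p = 0.547), 0.59 with the replicate number as a block (adjusted p = 0.405), 0.16 without control mouse 2 and 0.12 with the length trend removed. Its transcript, at 7567 bases, is longer than that of 94.8% of genes.

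Sgk1, a kinase that raises sodium channel and transporter activity, ranged from 36.7 to 43.3 FPKM in knockout and from 29.8 to 41.6 in control mice. The means were 40.4 ± 3.1 and 37.8 ± 5.39 FPKM (SD, n = 4 each, exact permutation p = 0.514), and the log2 fold change from counts was -0.062 (SE 0.123). Cdkn1a, the cell cycle inhibitor p21, which both p53 and the glucocorticoid receptor can raise, ranged from 95.2 to 100.1 FPKM in knockout and from 73.4 to 107 in control mice. Its log2 fold change was -0.058 (SE 0.128). For both genes the sign depended on the scale: limma on log2(FPKM + 1) gave 0.10 for Sgk1 and 0.11 for Cdkn1a.

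Pdk4 and Angptl4 serve fuel use. Pdk4, a kinase that shuts pyruvate dehydrogenase and so spares glucose, had 130.4, 33.8, 46.6 and 54.5 FPKM in knockout mice 1 to 4 and 37.6, 29.6, 33.5 and 47.9 in control mice 1 to 4. Knockout mouse 1 had more than any other mouse, the remaining 7 mice overlapped, and each knockout mouse was above the control mouse of its number in FPKM. On TMM-scaled counts knockout mouse 2 was below control mouse 2 (108 against 137 CPM), and the fit with the block gave a log2 fold change of 0.48 (edgeR adjusted p = 0.454). The means were 66.3 ± 43.5 and 37.2 ± 7.85 FPKM (SD, n = 4 each, exact permutation p = 0.171), and the log2 fold change was 0.69 (SE 0.389, edgeR adjusted p = 0.499). Without knockout mouse 1 it was 0.11. Skeletal muscle markers were highest among knockout mice in that mouse, at 26830 CPM, and were 28236 CPM in control mouse 2, where Pdk4 was 29.6 FPKM and 137 CPM on TMM-scaled counts. With the muscle marker level added to the fit, the log2 fold change of Pdk4 was 0.63 (edgeR unadjusted p = 0.0162, adjusted p = 0.61). The part of muscle in the Pdk4 level of knockout mouse 1 was not tested. Angptl4, a secreted inhibitor of lipoprotein lipase, ranged from 29.2 to 52.2 FPKM in knockout and from 26 to 49.2 in control mice (log2 fold change -0.044, SE 0.279). The sign of its log2 fold change turned when the length trend was removed (0.13) and when any of 4 single mice was left out.

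**Figure D3:**
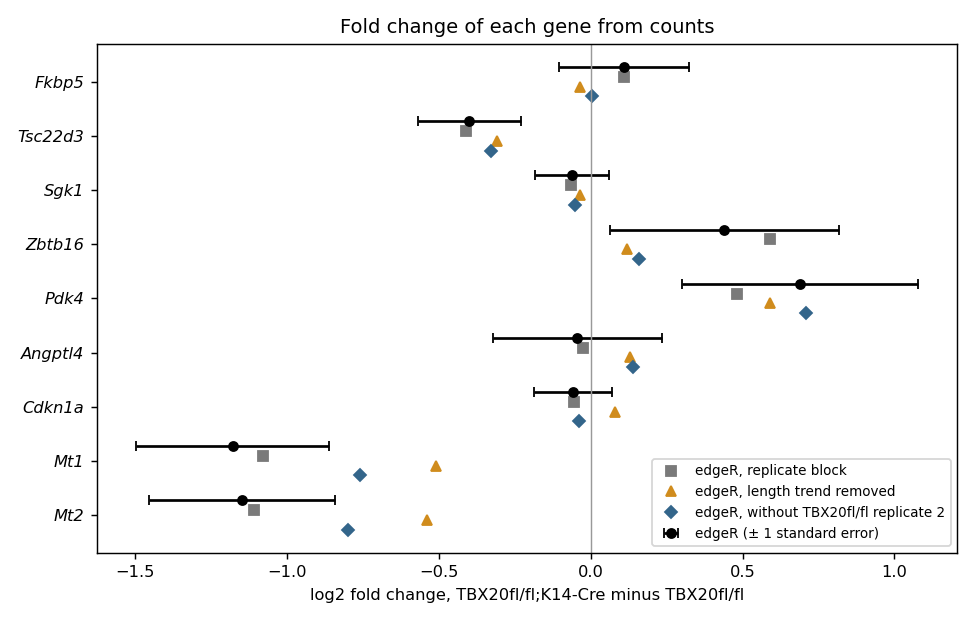
Log2 fold change of each of the 9 genes (x axis, knockout minus control, from counts), with black points and bars for edgeR ± 1 SE, grey squares for the fit with the replicate number as a block, orange triangles with the length trend removed and blue diamonds without control mouse 2. Mt1 and Mt2 lie left of 0 in all 4 fits, from -1.18 to -0.51, Tsc22d3 from -0.41 to -0.31, and Fkbp5, Angptl4 and Cdkn1a change sign between fits.

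Over the whole set, 6 of the 9 members had a negative and 3 a positive log2 fold change, with a median of -0.058 beside 0.026 over all genes tested. An unadjusted p under 0.05 was reached by 3 of 9 (Mt1, Mt2 and Tsc22d3, all lower) against 8.36% of all genes, and by 2 of 9 without control mouse 2 against 7.69%. It was 3 of 9 with the replicate number as a block against 10.1% of all genes, and 3 of 9 with the length trend removed against 8.91%. With the muscle covariate it was 4 of 9, beside 947 of 17124 genes. Without Mt1 and Mt2 the count was 1 of 7. The members were chosen with earlier results of these data known, so these shares are a description only. The order of levels in control mice was Mt2 and Mt1 (889 and 819 FPKM), then Cdkn1a (91) and Tsc22d3 (76), then Fkbp5 (37.9), Sgk1 (37.8), Pdk4 (37.2) and Angptl4 (36.8), and last Zbtb16 (3.36). Neighbours within each of these steps overlapped in their values over mice. The 2 metallothioneins lay above all other members in every mouse, and Zbtb16 below.

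Other genes commonly induced by glucocorticoids were read from a list of 30, all tested. It was also chosen with earlier results of these data known, so its shares are a description only. At an unadjusted p under 0.05, 6 were lower and 1 was higher, which is 23.3% of the list against 8.36% of all genes, and none passed the adjustment. With the block 5 were lower and 1 higher, 20% against 10.1%. Without control mouse 2 the counts were 2 lower and 2 higher, 13.3% against 7.69%. With the length trend removed they were 4 lower and 2 higher, 20% against 8.91%. The median log2 fold change of the list was -0.098, and ranged from -0.16 without knockout mouse 3 to -0.052 without control mouse 1. In limma on FPKM the median was 0.067. FPKM of the groups lay apart in 2 of the 30 genes, in either direction, against 7.37% of all genes.

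Among these, Il1r2, a decoy receptor for interleukin-1 that neutrophils also carry, was 114 ± 7.79 FPKM in knockout and 168 ± 35.1 in control mice (SD, n = 4 each) with no overlap (109 to 126 against 134 to 216, exact permutation p = 0.0286). Its log2 fold change was -0.78 (SE 0.25) and -0.40 with the length trend removed. Cebpd, a transcription factor of acute inflammation, had a log2 fold change of -0.73 (SE 0.307) with overlapping groups. Gadd45g, a growth arrest gene, had -0.52 (SE 0.208) and -0.13 with the length trend removed, and the transporter gene Slc10a6 had -0.50 (SE 0.184). In the other direction, Mertk, the receptor by which macrophages take up dying cells, had a log2 fold change of 0.58 (SE 0.195) and 0.36 with the length trend removed, at 4.26 to 5.71 FPKM in knockout and 1.53 to 3.72 in control mice. The edgeR adjusted p was 0.498 for each of these 5.

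**Figure D4:**
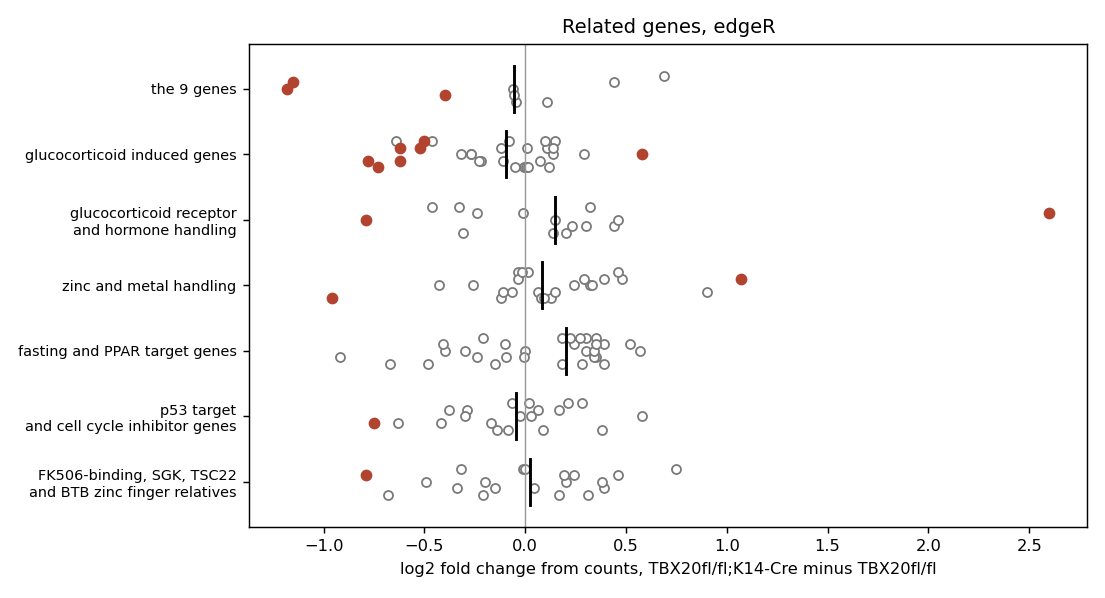
Log2 fold change from counts (x axis, knockout minus control) of the 9 genes and of the tested genes of 6 related lists (rows), with filled red points for genes at an unadjusted edgeR p under 0.05, open points for the others and a black line at each median. Mt1 and Mt2 are the leftmost points, and list medians lie between -0.098 and 0.20.

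Among the 15 tested genes of hormone handling, FPKM of the groups lay apart in 2, in either direction, against 7.37% of all genes. Hsd11b1 was 1 of these. Hsd11b1 encodes the enzyme that regenerates active glucocorticoid inside cells, and was 24.1 ± 3.26 FPKM in knockout and 35.9 ± 7.65 FPKM in control mice (SD, n = 4 each, exact permutation p = 0.0286). The ranges, 22.1 to 29 and 29.1 to 46.4 FPKM, only just failed to meet. Its log2 fold change was -0.79 (SE 0.257, edgeR adjusted p = 0.498), and -0.41 with the length trend removed. Hsd11b2, the enzyme that inactivates the hormone, was 1.77 FPKM in knockout mouse 2, the mouse with the most hair follicle RNA, 0.12 to 0.2 in the other knockout mice and 0.03 to 0.15 in control mice. Its fitted log2 fold change was 2.60 (SE 0.982, edgeR adjusted p = 0.498), and the part of hair follicle content in it was not tested.

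The receptor genes overlapped between the groups. Nr3c1, the glucocorticoid receptor, was 40.6 ± 3.62 FPKM in knockout and 32.8 ± 11.5 in control mice, with the lowest value of 15.7 in control mouse 2 (log2 fold change 0.20, SE 0.207, edgeR adjusted p = 0.607, and -0.20 with the length trend removed). Nr3c2, the mineralocorticoid receptor, was 1.48 ± 0.361 and 1.09 ± 0.448 FPKM (0.30, SE 0.271, edgeR adjusted p = 0.559, and 0.0044 with the length trend removed). Of 15 tested genes of this list, 1 was lower and 1 higher at an unadjusted p under 0.05, 13.3% against 8.36% of all genes. Without control mouse 2 it was 1 lower and 0 higher, 6.67% against 7.69%, and the block gave the same counts against 10.1%. Cyp11b1 and Hsd3b1, enzymes of steroid synthesis, were below the count filter.

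For the lists around the fuel and cell cycle members, the share of all genes at an unadjusted p under 0.05 was again 8.36%. Among 30 genes of fasting and of the lipid-sensing PPAR receptors, which share targets with Pdk4 and Angptl4, 0 reached that level in edgeR, and 0 in DESeq2 against 11.4% of all genes. The median log2 fold change was 0.20, with 0.056 without knockout mouse 1 and 0.12 without control mouse 2. The count was 3 higher with the length trend removed (10% against 8.91% of all genes), 2 higher with the block (6.67% against 10.1%) and 1 higher without control mouse 2 (3.33% against 7.69%). Among 20 p53 targets and cell cycle inhibitors, 1 did (5%), and 2 did (10%) with the length trend removed, against 8.91% of all genes, and in DESeq2, against 11.4%. That gene was Pmaip1, which encodes the cell death protein NOXA, at 3.48 ± 0.374 FPKM in knockout and 5.13 ± 0.355 FPKM in control mice (SD, n = 4 each) with no overlap (exact permutation p = 0.0286). Its log2 fold change was -0.75 (SE 0.196, edgeR adjusted p = 0.498) and stayed at -0.75 with the length trend removed. Among 20 relatives of Fkbp5, Sgk1, Tsc22d3 and Zbtb16, 1 reached that level (5%), Fkbp3 (log2 fold change -0.79, SE 0.348), and it had -0.21 with the length trend removed. With the block 0 were lower and 2 higher, 10% against 10.1% of all genes. FPKM of the groups lay apart, in either direction, in 3 of the 30 fasting genes. They did so in 1 of the 20 p53 genes and 1 of the 20 relatives, against 7.37% of all genes.

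Variation of the members together was read over mice. Of 36 pairs of members, the 15 that hold Mt1 or Mt2 cannot be read over all 8 mice, since their genotypes form separate clusters. In the other 21, the relation of Fkbp5 and Sgk1 was the strongest by rank and ran in opposite directions (Spearman's rho -0.929, permutation p = 0.00223, Benjamini-Hochberg adjusted p = 0.0402 over 36 pairs). By Pearson's r it was -0.675 (permutation p = 0.0564, adjusted p = 0.23), and -0.665 without the 2 mice farthest from the median of Fkbp5. The largest Pearson's r in the 21 was that of Tsc22d3 and Sgk1, 0.739 (permutation p = 0.0266, adjusted p = 0.137). It was 0.0588 without knockout mice 1 and 3. Fkbp5 and Zbtb16 had r = 0.731 (permutation p = 0.021, adjusted p = 0.126) and rho = 0.714 (permutation p = 0.0576, adjusted p = 0.415), and r was 0.399 without knockout mouse 1 and control mouse 2. That relation rests on these mice.

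The gene most like a member over the 8 mice, by Pearson's r of log2 CPM among 13289 genes, was Tbc1d20 for Fkbp5 (r = 0.985), Usp39 for Tsc22d3 (0.98), Ffar2 for Sgk1 (0.904) and Bsdc1 for Pdk4 (0.968). For Angptl4 it was Acot4 (0.89), for Cdkn1a Desi1 (0.96), for Mt1 Fcer1a (0.988) and for Mt2 Tes (0.988). All genes of a mouse share its library, depth and length trend, so these values are a description only. For Mt1 and Mt2 the 8 mice fall into separate clusters by genotype, and their r values mix that difference with the variation within genotypes. Fcer1a, the mast cell and basophil receptor chain for IgE, was 3.06 FPKM in knockout and 7.46 FPKM in control mice on average.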

How the data were processed

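RNA-seq was made by the authors from 8 cheek samples with single-end 50-base reads. Reads were filtered with SOAPnuke (with q at 0.2, n at 0.05 and l at 15) and aligned with HISAT, and the counting program is not given in the sources used here. The authors deposited estimated counts (expected counts), which are not normalized, and FPKM values. TPM and normalized counts (16 columns), group means (40 columns) and the log2 fold changes, p-values and q-values of 17 comparisons by the authors were not used.

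Counts were rounded. Genes with 10 or more counts in total were kept (17124), scaled by TMM and tested with edgeR 4.0.16 (quasi-likelihood) in R 4.3.3, with Benjamini-Hochberg adjustment over all genes. SE is the log2 fold change over the root of F. FPKM of single genes was compared by two-sided exact permutation tests. limma 3.58.1 was run on log2(FPKM + 1) for the 15969 genes whose FPKM averaged 0.1 or more. That pseudocount understates changes of low genes. DESeq2 1.42.0, other filters, a muscle covariate, the replicate block, removal of a length trend and omission of each mouse were alternatives. The omission of control mouse 2 together with the length trend was added after seeing the data. Transcript lengths come from the ratio of counts to FPKM. The tests were tested on simulated data.

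Total counts were 16056282 to 19880654, at which 3 counts are 0.151 to 0.187 CPM, for counting error only. Nothing in the labels ties mice to litters, so p-values measure the spread between these mice. Deviations of mice with the same number correlated at 0.323, 0.275, 0.176 and 0.108. The numbers, which come from the sample titles, were therefore taken to pair the mice in the replicate block, although they are different animals. The main edgeR fit and the exact permutation tests did not use the numbers, so their p-values are unpaired. The members and lists were chosen with earlier results of these data known. Named were the members, 7 fixed genes of the lists, up to 5 further genes per list with the smallest unadjusted p under 0.05, and the gene most like each member, of which 1 is not reported here. Coordinates of the deposited table mix scaffolds for 3 members, so RefSeq coordinates on GRCm38 were used.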

Additional observations from a re-analysis of the deposited data

Results flagged for a closer look

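In 50 groups of 4 mice, 1 mouse lay far from the other 3 (by Dixon's ratio) in 9 groups. About 2.5 would be given by chance if the groups were independent. They are not, since the same mice recur across genes, so the 2 numbers cannot be compared strictly. Among control mice, Mt2 was highest at 1185 FPKM in control mouse 2 against 779.8 to 808 in the others, Mertk was lowest there at 1.53 against 3.37 to 3.72, and Nr3c1 was lowest there at 15.7 against 36.5 to 40.4. Among knockout mice, mouse 2 had 1.77 FPKM of Hsd11b2 against 0.12 to 0.2, 65.6 of Slc39a10 against 14 to 19.7, and 186 of Mt4 against 26.9 to 49.5. Single knockout mice also had 126 FPKM of Il1r2 against 109 to 111, 29 of Hsd11b1 against 22.1 to 23, and 35.2 of Nr3c1 against 41.8 to 43.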

How the results depend on the processing

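Of 189 values under alternatives other than leaving out a mouse, 167 counted as unchanged, and 199 of 208 did so when mice were left out. Member fold changes were judged by sign and by side of an adjusted p of 0.05, which no member passed. Their unadjusted p played no part. Gene counts were judged by rough size, and list medians by a move smaller than the spread between mice of a group. A list median could thus turn sign and still count as unchanged. That of the relatives did so, from 0.023 to -0.0079 under the stricter count filter and to -0.014 without control mouse 4. DESeq2 called 10 genes at an adjusted p under 0.05 where edgeR called 0 (1431 at an unadjusted p under 0.05), and no member was among them. With the length trend removed, log2 fold changes turned sign for Fkbp5 (-0.035, with the replicate block as well -0.056, without control mouse 2 as well -0.04), Angptl4 (0.13, 0.12 and 0.18 in that order) and Cdkn1a (0.079, 0.088 and 0.0045). limma on FPKM turned Sgk1 (0.10), Angptl4 (0.14) and Cdkn1a (0.11), and the muscle covariate turned Angptl4 (0.022). List medians moved for glucocorticoid induced genes (limma 0.067), receptor and hormone handling (length 0.0044, with block -0.0057, limma 0.26), p53 targets (limma 0.11) and the relatives (length 0.099, with block 0.097, limma 0.16). The causes were not tested. With the replicate block alone, Mt1 had -1.08 and Mt2 -1.11, the members at an unadjusted p under 0.05 were again 3, and no adjusted call changed. Leaving out 1 mouse gave ranges of -0.029 to 0.25 for Fkbp5 (negative without knockout mouse 1), -0.21 to 0.14 for Angptl4, and on FPKM -0.0047 to 0.15 for Sgk1 and -0.011 to 0.29 for Angptl4. It gave list medians of 0.075 to 0.26 for receptor and hormone handling and -0.093 to 0.021 for p53 targets, and 2 to 4 members at an unadjusted p under 0.05. Mt1 ranged from -1.32 to -0.76 and Mt2 from -1.31 to -0.80. At 4 mice a group, differences of the size of most members here are within the spread between mice.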
